A study of Mus musculus with 17 samples.

Results

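Toll-like receptor (TLR) signalling in mouse macrophages passes through a small set of adaptor proteins and kinases, and the RNA of 10 of these genes was followed across the 13 polyadenylated RNA libraries of a study of AP-1 transcription factors. The genes were taken by name from the deposited expression table and were Myd88, Tirap, Ticam1, Ticam2, Irak1, Irak2, Irak3, Irak4, Traf6 and Tollip, which is 10 of 24453 gene models, each with 1 row. Every value is in RPKM, which is the read count of a gene scaled to its exonic length and to the size of the library, so that levels may be set side by side between genes as well as between libraries. All 10 genes had reads in all 13 libraries and passed the filter on low values, a mean of at least 1 RPKM, in every comparison.

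Of the 13 libraries, 8 were from immortalized bone marrow-derived macrophages (iBMDMs) and 5 were from thioglycollate elicited macrophages (TGEMs). The iBMDMs came from C57Bl/6EiJ bone marrow labelled male, were transformed with a retrovirus carrying Myc and BRAF V600E, were used at low passage and carried Cas9 with EGFP. All 4 iBMDM groups share these alterations, received a guide lentivirus, were sorted for its tagBFP2 marker and were treated with vehicle (PBS), with 2 libraries per group. The groups were a Scramble control, whose library names carry zsGreen, and cells with guides against Atf3 (Atf3KO), Jun (JunKO) and Jund (JunDKO, which is JunD and not a double knockout). A sorted guide population is not said to be a single clone, and no group has a second independent line. TGEMs were taken from mice labelled male, 8 weeks old in the study's methods, of the strains labelled C57Bl/6EiJ (C57Bl/6J in the methods) and Balb/cJ, and were treated with vehicle or with Kdo2 lipid A (KLA), a lipopolysaccharide substructure that activates TLR4, for 1 h. There was 1 vehicle and 1 KLA library for C57Bl/6EiJ, and 1 vehicle and 2 KLA libraries for Balb/cJ.

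TLRs and receptors of the IL-1 family share a cytoplasmic TIR domain that binds adaptors with the same domain. MyD88 serves most TLRs and the IL-1 family receptors, and TIRAP bridges it to TLR2 and TLR4 at the plasma membrane. TRIF, the product of Ticam1, serves TLR3 and, after endocytosis, TLR4, where TRAM, the product of Ticam2, connects it to the receptor. MyD88 assembles IRAK4 with IRAK1 or IRAK2 into the Myddosome, IRAK1 and IRAK2 then engage the ubiquitin ligase TRAF6, and TRAF6 leads to TAK1, IKK and the MAP kinases. IRAK3, also called IRAK-M, lacks strong kinase activity, is found mainly in monocytes and macrophages and is known as an inhibitor of this route and for its part in endotoxin tolerance. TOLLIP binds IRAK1 and IL-1 receptors, dampens signalling and acts in endosomal sorting.

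The libraries held 1553296 to 18444431 reads, recovered from the steps of the RPKM values, and the 10 genes had between 8 and 4333 reads each. Macrophage markers were present at 1 RPKM or more in every library, with all 10 of 10 genes detected. Their summed level was 17086 to 33270 RPKM in iBMDMs and 8143 to 11088 RPKM in TGEMs. TGEM libraries also held fibroblast and mesothelial markers (6 of 6 detected, sum 29.8 to 55.1 RPKM), B cell markers (4 of the 4 listed genes in the table, 10.1 to 23.9 RPKM) and mast cell or eosinophil markers (5 of 6, 2.45 to 15.0 RPKM, Prg2 at 0). In iBMDMs these sums were at most 0.221, 0.488 and 1.29 RPKM. T and NK cell markers and dendritic cell markers summed to at most 1.94 and 2.17 RPKM in any library, neutrophil markers to at most 13.4 RPKM in TGEMs, and erythroid markers had no reads. The labels were checked where genes allow it. The RNA of the targeted genes was checked first. Atf3 was at 154 and 169 RPKM in Atf3KO against 80.7 and 77.4 in Scramble, Jun was at 26.2 and 20.5 RPKM in JunKO against 17.6 and 18.5, and Jund was at 6.94 and 6.07 RPKM in JunDKO against 9.19 and 8.33. By limma, Jund was thus lower in both JunDKO libraries without passing the test (log2 fold change -0.38 ± 0.49, adjusted p = 0.654), Jun did not pass in JunKO (0.34 ± 0.38, adjusted p = 0.912), and Atf3 was higher in Atf3KO (1.02 ± 0.16, adjusted p = 0.00237). Jund was also higher in Atf3KO, at 22.6 and 83.0 RPKM (2.19 ± 0.49, adjusted p = 0.0100). Cas9 edits need not remove RNA, so these levels do not check the edit, and the groups are called by their labels. For the proteins, the paper reports that western blots bore out the knockouts. It also reports much less Jun binding by ChIP-seq in the Jun knockout iBMDMs than in Scramble. The Atf3KO libraries stood apart, since 10425 and 10631 models were detected in them against 11884 to 12533 in the other 6 iBMDM libraries, although both were deeper than 5 of those 6. All 5 TGEM libraries, labelled male, held 863 to 8676 reads of Xist and no read of the Y-linked Ddx3y and Kdm5d, with 15 reads of Eif2s3y in the C57Bl/6EiJ vehicle library and 1 read of Uty in Balb/cJ KLA replicate 1, whereas the iBMDM libraries held 0 to 3 Xist reads. These counts go against the labelled sex of the TGEM libraries, which touches Irak1, the 1 X-linked gene among the 10.

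The genes lie on 9 chromosomes of mm10, at the positions the table gives. Myd88 spans chr9:119335988-119340040 on the minus strand and Tirap chr9:35184391-35199905 on the minus strand. Ticam1 spans chr17:56269462-56276767, on the minus strand. Irak1 spans chrX:74013918-74023921 on the minus strand, with 14 exons that also hold the microRNAs Mir5132 and Mir718. Irak2 spans chr6:113638467-113695027 on the plus strand and Irak4 chr15:94543660-94568316 on the plus strand. Irak3 spans chr10:120141654-120201537 on the minus strand, with 12 exons. Traf6 spans chr2:101678420-101701668 on the plus strand and Tollip chr7:141881585-141902406 on the minus strand. Values are sums over the exons of each gene, from 1897 bases for Myd88 to 5976 bases for Traf6. Exons of Tirap overlap the antisense lncRNA Gm39318 and those of Irak3 overlap antisense lncRNAs, and since no strand setting is given, reads of such a pair cannot be told apart.

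The promoters of the genes that the comparisons turn on are printed to place them beside the factors the study perturbed. Each runs 5′ to 3′ on the gene's strand, from 250 bases before the RefSeq start site (GRCm38.p6) through 50 bases from it on. Irak3 (chr10:120201548-120201847, minus) is shown for its low level in JunDKO, Irak1 (chrX:74023872-74024171, minus) and Traf6 (chr2:101678170-101678469, plus) for the opposite change, and Myd88 (chr9:119339969-119340268, minus) for its level after KLA. Capitals mark a match to a searched motif, the E-box CACGTG in Irak3 and the interferon-stimulated response element, GAAA and GAAA with 2 free bases between them, in Myd88.
Irak3: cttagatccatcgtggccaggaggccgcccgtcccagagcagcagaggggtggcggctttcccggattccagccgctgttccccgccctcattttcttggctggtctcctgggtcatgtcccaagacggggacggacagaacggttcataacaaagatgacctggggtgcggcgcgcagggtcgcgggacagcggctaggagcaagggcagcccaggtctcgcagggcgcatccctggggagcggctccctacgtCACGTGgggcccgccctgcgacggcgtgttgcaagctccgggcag
Irak1: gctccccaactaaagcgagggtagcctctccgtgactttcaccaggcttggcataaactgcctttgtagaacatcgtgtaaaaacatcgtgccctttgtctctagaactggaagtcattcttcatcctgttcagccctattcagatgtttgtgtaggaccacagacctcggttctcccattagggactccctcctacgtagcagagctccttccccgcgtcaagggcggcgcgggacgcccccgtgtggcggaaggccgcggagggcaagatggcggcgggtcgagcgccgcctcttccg
Traf6: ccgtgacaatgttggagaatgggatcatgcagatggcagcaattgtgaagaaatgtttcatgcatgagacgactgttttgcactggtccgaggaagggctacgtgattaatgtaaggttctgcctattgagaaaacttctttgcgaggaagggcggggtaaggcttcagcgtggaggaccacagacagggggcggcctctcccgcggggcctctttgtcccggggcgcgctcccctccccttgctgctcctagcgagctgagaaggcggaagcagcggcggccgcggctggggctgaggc
Myd88: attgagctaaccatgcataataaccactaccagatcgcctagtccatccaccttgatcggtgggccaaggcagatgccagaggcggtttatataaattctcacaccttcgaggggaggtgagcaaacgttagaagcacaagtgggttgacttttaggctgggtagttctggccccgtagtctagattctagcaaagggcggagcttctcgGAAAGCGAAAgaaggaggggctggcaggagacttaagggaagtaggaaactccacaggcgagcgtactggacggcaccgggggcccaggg
RefSeq promoters matched 9 of the 10 genes by symbol, all but Ticam2. On either strand, the AP-1 site TGAGTCA was in 5.20% of 32851 promoters of this length and in none of the 9 genes, and the related cyclic AMP response element TGACGTCA was in 1.79% and in none of the 9. The NF-kappaB letters, GGGA, a free base, TT, a free base and CC (1.20% of promoters) and the PU.1 letters GAGGAAGT (3.20%) also matched none of the 9. CACGTG was in 7.15% of promoters, and in those of Irak3 and Ticam1. The interferon-stimulated response element was in 3.44%, and in that of Myd88. The 12 promoters of the 9 genes had a median GC content of 60.5% and 20.5 CpG, against 52.7% and 7 over all promoters. A match is a description of the letters in this window only.

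**Figure D1:**
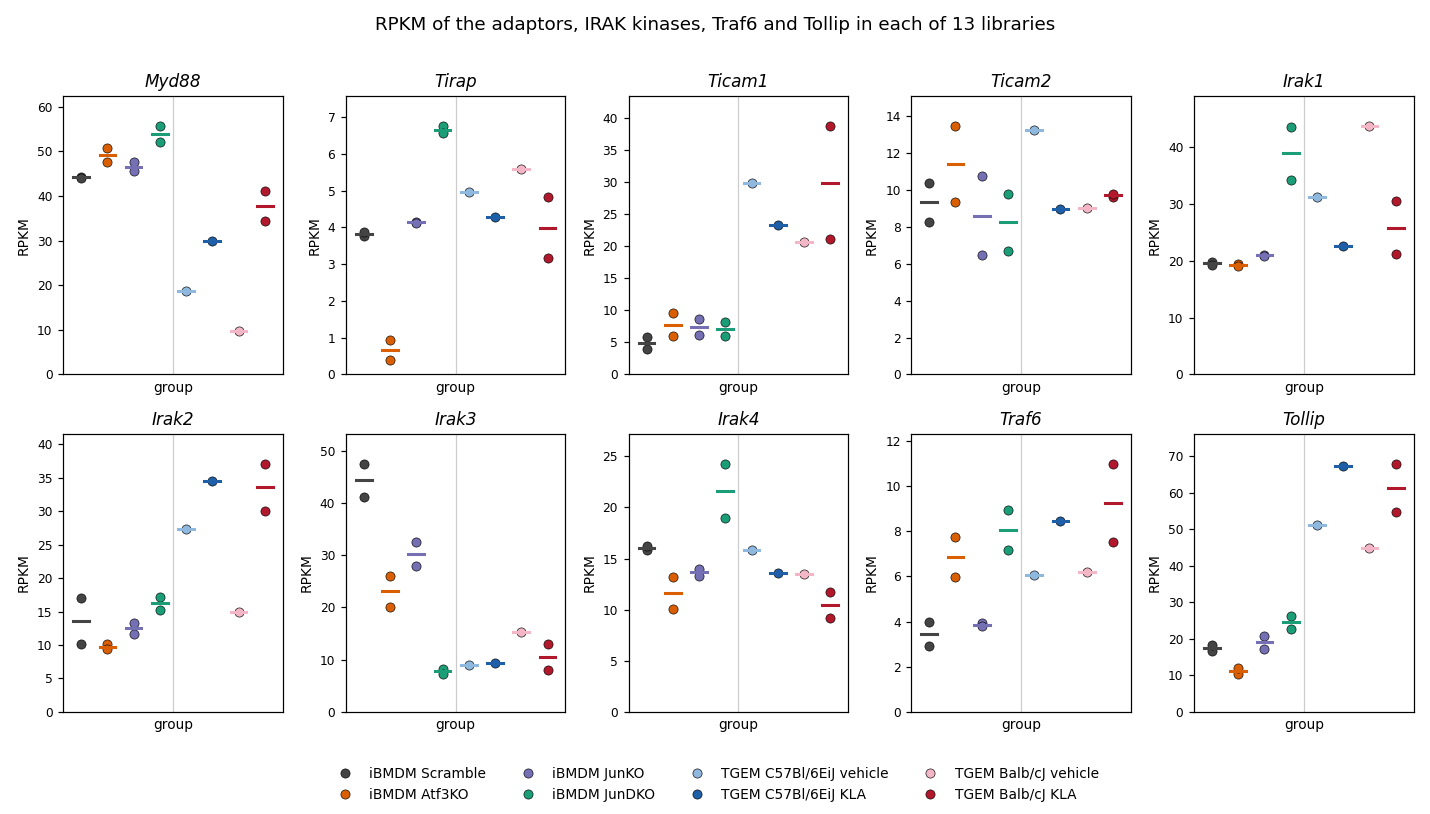
RPKM (y axis, linear, from 0) of each gene in each of the 13 libraries, 1 panel per gene. Points are libraries, short lines are group means, and the grey line parts the 4 iBMDM groups from the 4 TGEM groups. Irak3 is highest in Scramble (41.1 and 47.5 RPKM) and near 8 RPKM in JunDKO, and Myd88 and Ticam1 separate iBMDMs from TGEMs in opposite directions.

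Among the adaptors, Myd88 was the most abundant in iBMDMs and the evenest across the guide groups. Its level was 44.2 and 44.0 RPKM in Scramble, 47.6 and 45.5 in JunKO, 50.7 and 47.6 in Atf3KO and 55.7 and 52.1 in JunDKO. In TGEMs it was 18.8 RPKM in C57Bl/6EiJ vehicle, 30.0 in C57Bl/6EiJ KLA, 9.68 in Balb/cJ vehicle and 41.1 and 34.4 in Balb/cJ KLA. All 8 iBMDM libraries therefore lay above all 5 TGEM libraries, and within TGEMs both vehicle libraries lay below the 3 KLA libraries.

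Ticam1, which encodes TRIF, showed the opposite order of cell types. Its level was 5.87 and 3.93 RPKM in Scramble, 8.72 and 6.19 RPKM in JunKO, 8.20 and 6.08 RPKM in JunDKO and 5.96 and 9.63 RPKM in Atf3KO. TGEM levels were 29.9 RPKM in C57Bl/6EiJ vehicle, 23.3 in C57Bl/6EiJ KLA, 20.7 in Balb/cJ vehicle and 38.8 and 21.1 in Balb/cJ KLA. The cell types did not overlap, and both Scramble libraries lay just below the 3 knockout groups, which overlapped one another. The Balb/cJ KLA libraries, prepared on different label dates, lay further apart than vehicle and KLA did within C57Bl/6EiJ. Of the summed RPKM of the 4 adaptors, Myd88 took 68.4% to 72.0% in every iBMDM library and 21.5% to 50.2% in TGEMs, and Ticam1 took 6.31% to 14.3% in iBMDMs and 30.9% to 46.0% in TGEMs.

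Tirap was low everywhere and lowest in the libraries labelled Atf3KO. Its level was 3.77 and 3.88 RPKM in Scramble, 4.15 and 4.13 in JunKO, 6.76 and 6.56 in JunDKO, 0.390 and 0.947 in Atf3KO and 3.16 to 5.58 in the 5 TGEM libraries. The Atf3KO values stood on 8 and 32 reads, with exact 95% Poisson intervals of 0.168 to 0.768 and 0.648 to 1.34 RPKM that cover counting error only. Both lay under the interval of every Scramble library, of which the lowest bound was 2.61 RPKM.

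Ticam2, which encodes TRAM, was the steadiest of the 10 genes. Its lowest library held 6.48 RPKM (JunKO) and its highest 13.5 RPKM (Atf3KO), with 8.27 and 10.4 RPKM in Scramble and 8.96 to 13.3 RPKM in TGEMs. Its group means spanned 1.61-fold, and replicates of JunKO (6.48 and 10.7 RPKM) differed as much as the widest pair of group means.

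Among the IRAK genes, Irak4, the upstream kinase, was at 15.9 and 16.2 RPKM in Scramble, 14.0 and 13.3 in JunKO, 10.0 and 13.2 in Atf3KO, 24.3 and 19.0 in JunDKO and 9.14 to 15.9 in TGEMs. Irak1, its first substrate, was at 19.8 and 19.3 RPKM in Scramble, 21.1 and 20.8 in JunKO, 19.4 and 19.1 in Atf3KO and 43.5 and 34.2 in JunDKO. Irak1 was within a narrow band in 6 of 8 iBMDM libraries, and both JunDKO libraries lay above that band.

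TGEM levels of Irak1 were 31.1 RPKM in C57Bl/6EiJ vehicle, 22.6 in C57Bl/6EiJ KLA, 43.6 in Balb/cJ vehicle and 30.4 and 21.1 in Balb/cJ KLA. Irak2, the kinase that sustains signalling after IRAK1, was at 17.1 and 10.2 RPKM in Scramble, 13.3 and 11.7 in JunKO, 10.1 and 9.37 in Atf3KO and 17.2 and 15.3 in JunDKO. In TGEMs it was at 27.3 RPKM in C57Bl/6EiJ vehicle, 34.5 in C57Bl/6EiJ KLA, 14.9 in Balb/cJ vehicle and 37.1 and 30.0 in Balb/cJ KLA. Irak1 was thus lower and Irak2 higher in every KLA library than in the vehicle library of the same strain, while the 2 Scramble libraries of Irak2 lay nearly as far apart as the lowest and highest knockout libraries.

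Irak3 had the widest range of the IRAK genes. Its level was 47.5 and 41.1 RPKM in Scramble, 32.6 and 27.8 in JunKO, 26.1 and 20.2 in Atf3KO and 8.28 and 7.21 in JunDKO. TGEM levels were 8.96 RPKM in C57Bl/6EiJ vehicle, 9.36 in C57Bl/6EiJ KLA, 15.3 in Balb/cJ vehicle and 12.9 and 8.07 in Balb/cJ KLA. The 4 iBMDM groups did not overlap, and both JunDKO libraries lay at the low end of the TGEM values.

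**Figure D2:**
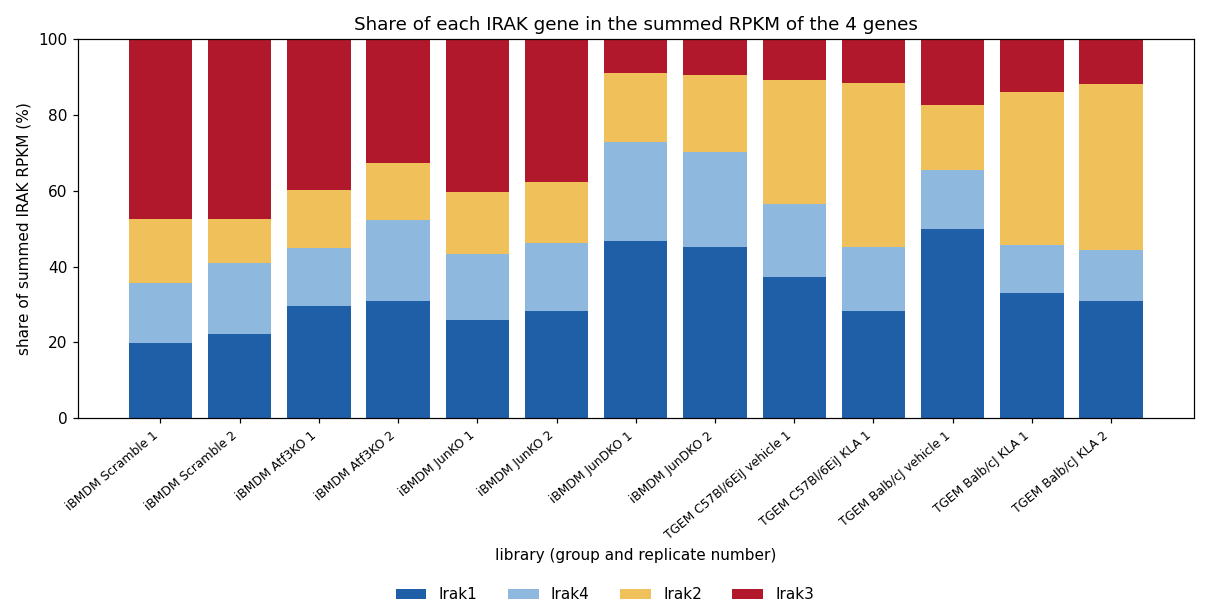
Share (y axis, %) of each IRAK gene in the summed RPKM of Irak1, Irak2, Irak3 and Irak4, with 1 bar per library (x axis). Irak3 made up 47.4% of the sum in both Scramble libraries and 8.88% and 9.53% in JunDKO, and Irak2 made up the largest share in all 3 KLA libraries.

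Shares within the IRAK family do not depend on the scaling of a library. Irak3 held 47.4% of the summed IRAK RPKM in both Scramble libraries, 40.2% and 37.8% in JunKO, 39.7% and 32.6% in Atf3KO, 8.88% and 9.53% in JunDKO and 10.8% to 17.5% in TGEMs. Irak1 held 19.8% and 22.2% in Scramble against 46.7% and 45.2% in JunDKO. Irak3 RNA was thus 2.40 and 2.13 times Irak1 RNA in Scramble, and 0.190 and 0.211 times in JunDKO, with no overlap between the groups. The summed IRAK level itself was 61.8 to 100.3 RPKM in iBMDMs and 68.3 to 92.1 RPKM in TGEMs.

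Traf6, the ubiquitin ligase below the IRAKs, was at 3.99 and 2.93 RPKM in Scramble, 3.93 and 3.81 in JunKO, 7.73 and 5.99 in Atf3KO and 8.94 and 7.15 in JunDKO. It was at 6.05 RPKM in C57Bl/6EiJ vehicle, 8.44 in C57Bl/6EiJ KLA, 6.22 in Balb/cJ vehicle and 11.0 and 7.53 in Balb/cJ KLA. JunKO fell within the Scramble range, and every other library lay above it. Tollip was at 16.7 and 18.3 RPKM in Scramble, 17.3 and 20.8 in JunKO, 10.4 and 12.0 in Atf3KO and 22.6 and 26.3 in JunDKO. TGEMs held 51.1 RPKM of Tollip in C57Bl/6EiJ vehicle, 67.3 in C57Bl/6EiJ KLA, 44.8 in Balb/cJ vehicle and 68.0 and 54.8 in Balb/cJ KLA, all above the highest iBMDM library. Tollip had the widest range of group means of the 10 genes, 2.49 on the log2(RPKM + 1) scale.

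Which of these genes depend on each AP-1 member is asked by the comparison of each guide group with Scramble. In JunDKO, the inhibitor Irak3 fell and Irak1 and Traf6 rose, while the other 7 genes did not pass the test. A gene passed at an adjusted p under 0.05 over all models tested, in limma on log2(RPKM + 1), and 3 of 10 did so against 11.7% of all 10691 models. Irak3 had a log2 fold change of -2.37 ± 0.20 (SE, adjusted p = 0.000345), which is 5.18-fold lower on that scale, and 1.05% of all models had a log2 fold change as low or lower. It alone also met the study's own bar of a 2-fold change and 16 RPKM in a group, which 4.97% of models did. Its fall had the same direction and passed under all 19 alternatives, with log2 fold changes from -2.65 to -1.95.

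Irak1 had a log2 fold change of 0.94 ± 0.18 (adjusted p = 0.0135) and Traf6 of 1.02 ± 0.24 (adjusted p = 0.0304) in JunDKO. The median of all models was itself 0.23 higher in JunDKO, and 59% of the models that passed were higher, against 30.8% with equal library medians and 41.3% with quantile normalization. With equal medians Irak1 had a log2 fold change of 0.67 (adjusted p = 0.0548) and Traf6 of 0.75 (adjusted p = 0.0996), so that neither passed, and with quantile normalization Irak1 passed (adjusted p = 0.0297) and Traf6 did not (adjusted p = 0.0761). Irak1 also did not pass without JunDKO replicate 1 (adjusted p = 0.123), Scramble replicate 1 (0.0702) or Scramble replicate 2 (0.0886). Traf6 did not pass without any 1 of the 6 Scramble, JunKO and JunDKO libraries (adjusted p 0.0575 to 0.206) or with no filter on low values (0.0537). The JunDKO and Scramble libraries did not overlap for 8 of the 10 genes, all but Ticam2 and Irak2, against 61.6% of all models. Of these 8, Tirap (0.67 ± 0.25, adjusted p = 0.134), Tollip (0.46 ± 0.19, adjusted p = 0.169), Myd88, Ticam1 and Irak4 did not pass. With a replicate block and without the Atf3KO libraries, an alternative chosen after seeing the data, Tollip passed (adjusted p = 0.0432), as it did with a block and a GC correction (0.0375).

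**Figure D3:**
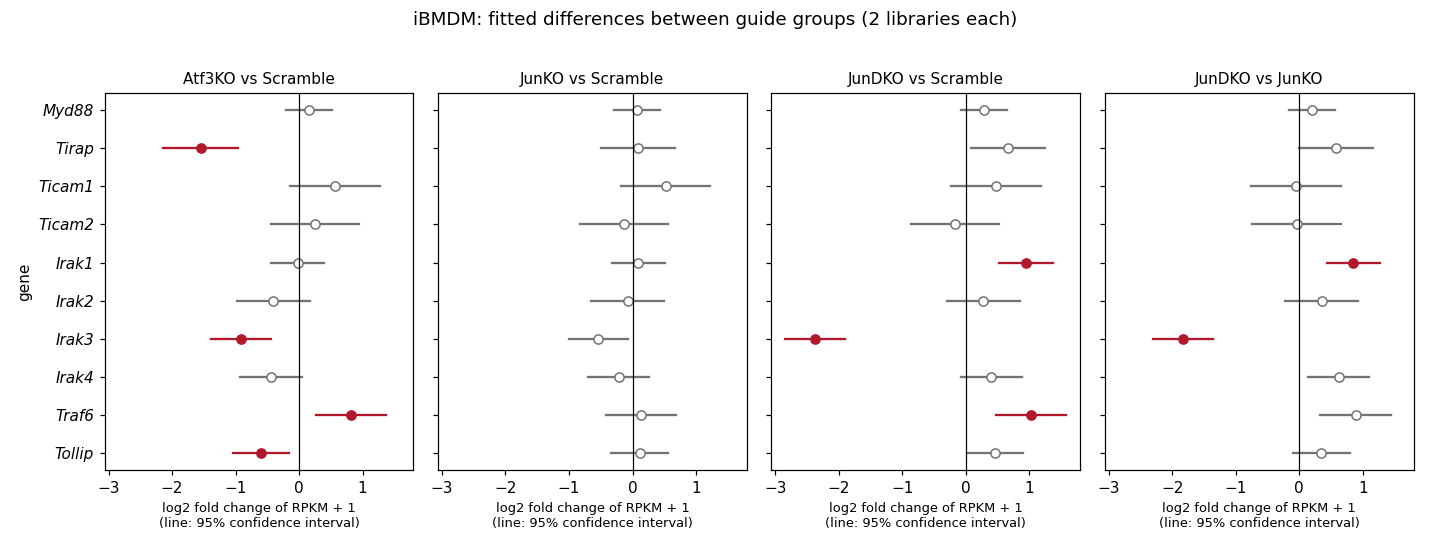
Fitted log2 fold change of RPKM + 1 (x axis) of each gene (y axis) in 4 comparisons of iBMDM groups with 2 libraries each. Lines are 95% confidence intervals, and filled red points passed at an adjusted p under 0.05. Irak3 is the lowest point of both JunDKO comparisons and Tirap of Atf3KO against Scramble, and no gene passed in JunKO against Scramble.

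The lists around these 10 genes are described beside the 11.7% of all models that passed in JunDKO. Of the TLRs and co-receptors 13 of 18 were tested in JunDKO and 2 rose, Tlr1, a partner of TLR2 (log2 fold change 1.29 ± 0.23), and Unc93b1, the chaperone of endosomal TLRs (1.21 ± 0.30). Of 19 tested genes at the ubiquitin and kinase steps below TRAF6 and TRIF, 1 passed, Ikbkg, the regulatory subunit of IKK, which fell from 32.1 to 10.5 RPKM (-1.53 ± 0.20). Of 12 tested inhibitors, 1 passed, Tnfaip3, the deubiquitinase A20, which fell from 20.0 to 5.50 RPKM (-1.69 ± 0.19). None of the 3 tested IL-1 family receptors passed. The list medians were 0.15, 0.33, -0.66 and 0.14 in that order, against 0.23 over all models. Of the KLA response genes, 4 of 11 tested passed, 1 higher and 3 lower, with Ptgs2 lowest (-1.85 ± 0.30). Of the 8 neutrophil markers, S100a8 was the only 1 detected in iBMDMs, at 21.8 to 41.1 RPKM in the other 6 libraries and listed at 0 in both JunDKO libraries, and its part in these results was not tested.

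In Atf3KO, Tirap, Irak3 and Tollip fell and Traf6 rose, and the other 6 genes did not pass. This was 4 of 10 genes against 41.2% of all 10691 models, which is no larger a share than the background, and none met the study's bar (12.5% of models). Tirap had a log2 fold change of -1.55 ± 0.25 (adjusted p = 0.00316), and its mean RPKM was 5.72 times lower. Tirap kept this direction under all 18 alternatives, from -2.54 to -0.64. Each of them draws on Atf3KO libraries, in which fewer models were detected, and the part of the lower detection in the Tirap fall was not tested. Irak3 had -0.92 ± 0.20 (adjusted p = 0.00973), Tollip -0.60 ± 0.19 (adjusted p = 0.0375) and Traf6 0.82 ± 0.24 (adjusted p = 0.0276).

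Irak3 in Atf3KO did not pass without Scramble replicate 1 (adjusted p = 0.0569), and Traf6 did not pass without Atf3KO replicate 1 (0.0930), without Scramble replicate 2 (0.152) or with only these 4 libraries fitted (0.0746). Tollip was lost in 7 of 18 alternatives, among them each one that left out an Atf3KO, a Scramble or a JunDKO library (adjusted p 0.0523 to 0.165). Across 10618 models with a GC content, the Atf3KO difference rose with GC content (Spearman rho 0.50, a description over genes and not over replicates), and a GC correction kept all 4 calls. Irak2 (-0.41, adjusted p = 0.220) passed as well with that correction (-0.64, adjusted p = 0.0401). Atf3KO replicate 2 has another label date than the other iBMDM libraries, and the part of the date was not tested.

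The lists are given for description, beside the 41.2% of all models that passed in Atf3KO. Unc93b1 rose (1.50 ± 0.30) and Tlr1 fell (-1.28 ± 0.23), 2 of 4 receptors that passed of 13 tested, with 1 higher and 3 lower. At the steps below TRAF6, 8 of 19 passed, 3 higher and 5 lower, with Ikbkg at -1.83 ± 0.20. Ube2n, the E2 enzyme that works with TRAF6, is listed at 0 in both Atf3KO libraries, against 67 reads in Scramble. Most cells use this enzyme, and fewer models were detected in these libraries, so no fold is given, and the part of the lower detection was not tested. The IL-1 family receptor Il18rap is likewise listed at 0 against 47 reads, and 2 of 3 tested receptors of that family passed, both lower. Of 12 inhibitors 2 rose and 4 fell, with Nfkbib at 2.00 ± 0.38 and Tnip3 at -1.86 ± 0.27, and 4 of 11 KLA response genes fell, with Ptgs2 at -2.74 ± 0.30.

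In JunKO, none of the 10 genes passed in limma, against 0.281% of all models (30 of 10691), and none passed in limma-voom on the recovered reads. At an unadjusted p under 0.05 the count was 1 of 10, Irak3, against 7.88% of models. Irak3 had a log2 fold change of -0.54 ± 0.20 with a 95% confidence interval of -1.01 to -0.07 (adjusted p = 0.536), and both JunKO libraries lay below both Scramble libraries. Interval ends for the other 9 genes lay between -0.83 (Ticam2) and 1.23 (Ticam1). No gene of the 5 lists passed in JunKO.

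Direct comparisons of the guide groups ask which of these differences are larger in 1 group than in another, and they share libraries with the comparisons above. Against JunKO, JunDKO had lower Irak3 (-1.83 ± 0.20, adjusted p = 0.00150) and higher Irak1 (0.85 ± 0.18, adjusted p = 0.0267), 2 of 10 genes against 8.14% of all models. Irak3 passed there in all 19 alternatives. Irak1 did not pass with equal library medians (0.60, adjusted p = 0.0939), with quantile normalization (0.70, adjusted p = 0.0587) or without any 1 of the 6 JunDKO, JunKO and Scramble libraries (adjusted p 0.0569 to 0.204). Traf6 passed with a GC correction (0.91, adjusted p = 0.0301), and Traf6 (0.89, adjusted p = 0.0320) and Irak4 (0.62, adjusted p = 0.0361) with a replicate block and without the Atf3KO libraries. Of the models that passed, 53.2% were higher in JunDKO, against 27% with equal medians.

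Against JunDKO, Atf3KO had lower Tirap (-2.22 ± 0.25), Tollip (-1.06 ± 0.19), Irak1 (-0.97 ± 0.18) and Irak4 (-0.84 ± 0.21) and higher Irak3 (1.46 ± 0.20). This was 5 of 10 genes against 40.7% of all models, with adjusted p from 0.000616 for Tirap to 0.0143 for Irak4, and Irak4 did not pass without JunDKO replicate 1 (0.104). Irak3 and Tollip met the study's bar, as 12.2% of models did. Irak2 (-0.68, adjusted p = 0.0593) passed in 6 of 17 alternatives, which were the replicate block (0.0496), limma-voom (0.0162), a GC correction (-0.91, adjusted p = 0.00941), both together (0.00638) and the fits without Scramble replicate 1 (0.0346) or 2 (0.0341).

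Against JunKO, Atf3KO had lower Tirap (-1.64 ± 0.25, adjusted p = 0.00327) and Tollip (-0.72 ± 0.19, adjusted p = 0.0236), 2 of 10 genes against 35.5% of all models. Tollip did not pass without Atf3KO replicate 1 (adjusted p = 0.0597) or JunKO replicate 2 (0.136), and Traf6 passed with a GC correction (1.02, adjusted p = 0.0123). Irak3, whose libraries lay below both Scramble libraries in all 3 guide groups, did not pass between Atf3KO and JunKO (-0.38, 95% confidence interval -0.85 to 0.09).

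What 1 h of TLR4 stimulation does to the genes that carry its signal is asked in TGEMs. The KLA response genes served as a positive control and were chosen with earlier results of these data known. All 12 of 12 rose, with a median log2 fold change of 5.52. None of the 10 adaptor and kinase genes passed, against 1.53% of all 10357 models, in a fit of 5 libraries with 2 residual degrees of freedom, and none passed in limma-voom. At an unadjusted p under 0.05 the count was 2 of 10, Myd88 and Irak2, against 15% of models. Myd88 had a log2 fold change of 1.34 ± 0.33 (95% confidence interval 0.56 to 2.11, adjusted p = 0.140) and Irak2 of 0.78 ± 0.29 (0.10 to 1.46, adjusted p = 0.287).

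**Figure D4:**
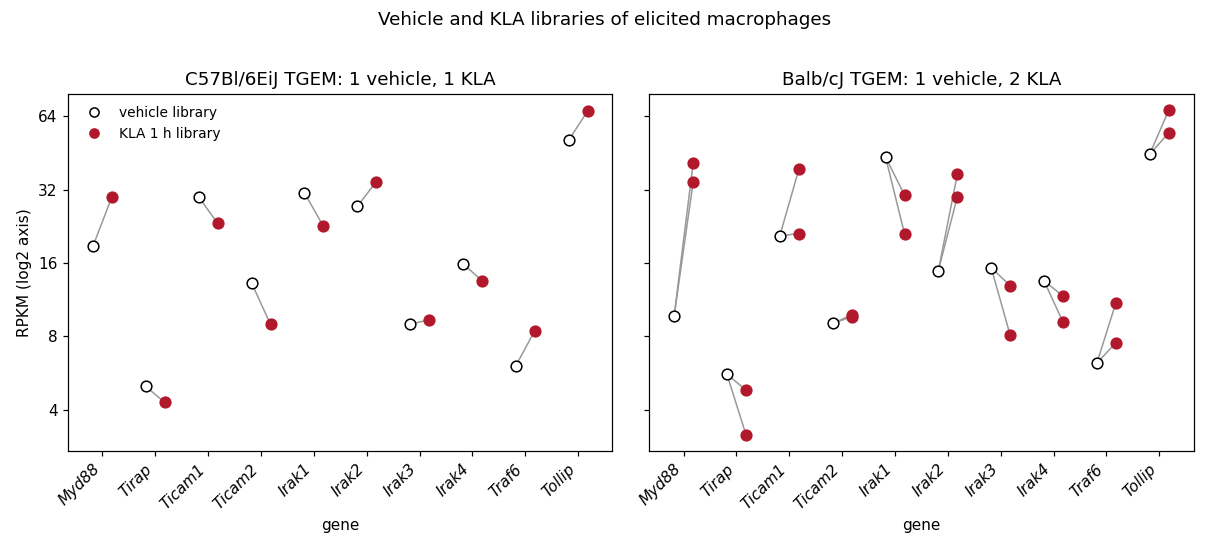
RPKM (y axis, log2 axis) of each gene (x axis) in vehicle libraries (open) and KLA libraries (filled) of C57Bl/6EiJ (left) and Balb/cJ (right) TGEMs. Grey lines join vehicle and KLA libraries of a strain. Myd88 goes from 9.68 to 41.1 and 34.4 RPKM in Balb/cJ and from 18.8 to 30.0 RPKM in C57Bl/6EiJ.

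Each strain has 1 pair of vehicle and KLA libraries with the same label date, and these pairs were compared without a test. Myd88 was 4.24 times as high with KLA in Balb/cJ and 1.60 times in C57Bl/6EiJ. Its Balb/cJ vehicle value stood on 43 reads. Irak2 was 2.49 and 1.26 times as high, and Traf6 1.77 and 1.40 times. Tollip was also higher with KLA in both pairs, at 1.52 and 1.32 times vehicle. How many of all models went the same way in both pairs was not counted.

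Tirap, Irak1 and Irak4 were lower with KLA in both pairs, at 0.864 and 0.860, 0.697 and 0.727, and 0.865 and 0.854 times vehicle for Balb/cJ and C57Bl/6EiJ. The median log2(RPKM + 1) of the library itself went from 3.19 to 3.00 with KLA in C57Bl/6EiJ and from 3.05 to 3.04 in Balb/cJ. In C57Bl/6EiJ, Tirap (log2 difference -0.18) and Irak4 (-0.21) thus moved about as far as their library. Ticam1 was 1.87 times vehicle in Balb/cJ and 0.778 times in C57Bl/6EiJ, and Ticam2 and Irak3 also went in opposite directions. Within the IRAKs, the Irak2 share was 17.0% in Balb/cJ vehicle and 40.3% and 43.9% with KLA, and 32.8% and 43.1% in C57Bl/6EiJ, so that Irak2 passed Irak1 as the most abundant of the 4 in every KLA library. Without the Balb/cJ vehicle library, the lower in Myd88 of the vehicle libraries, the Myd88 log2 fold change was 0.65 (adjusted p = 0.801), and only the fit of all 13 libraries let Myd88 pass (adjusted p = 0.0140).

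Whether the strains differ in these genes, or in their KLA response, was tested in the same TGEM libraries. None of the 10 genes passed between Balb/cJ and C57Bl/6EiJ in limma or in limma-voom, against 2.31% of all models, and none had an unadjusted p under 0.05 (21.4% of models). No label date is shared between the strains, so strain and date cannot be told apart here or in the interaction. None passed for the interaction of KLA and strain, for which no model passed (0%) in a fit with 1 residual degree of freedom. None of the 10 had an unadjusted p under 0.05 there either, against 8.06% of models, and limma-voom also called none. The largest interaction among the 10 was that of Myd88, 1.20 ± 0.52 (95% confidence interval -0.14 to 2.55, adjusted p = 0.645), in the direction of a larger increase in Balb/cJ.

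Around them, KLA raised the receptor genes Cd14, the LPS co-receptor (from 31.6 to 418.3 RPKM, log2 fold change 3.71 ± 0.50), and Tlr2 (from 4.40 to 60.7 RPKM, 3.36 ± 0.45), 2 of 14 tested. No gene passed among 20 at the steps below TRAF6 and TRIF or among 3 IL-1 family receptors. Of 13 inhibitors, 5 passed and all 5 rose, with Nfkbia, which encodes IkappaB alpha, at 5.64 ± 0.26 and Tnfaip3 at 4.12 ± 0.29. Over all models 1.53% passed, of which 84.8% were higher with KLA. The list medians were -0.11, -0.04, 0.18 and 0.54, against -0.15 over all models.

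TGEMs and iBMDMs differ in source, culture, label date and the sex that their X- and Y-linked genes show, and these cannot be told apart. In bulk RNA, fewer cells of a type and less RNA per cell cannot be told apart either. With the C57Bl/6EiJ vehicle level of TGEMs set against Scramble, Ticam1, Tollip and Irak1 were higher in TGEMs and Irak3 and Myd88 lower, 5 of 10 genes against 46.3% of all 10929 models. Ticam1 had a log2 fold change of 2.18 ± 0.39 (adjusted p = 0.00116), Tollip of 1.48 ± 0.22 (adjusted p = 0.000373), Irak3 of -2.01 ± 0.29 (adjusted p = 0.000287) and Myd88 of -1.54 ± 0.29 (adjusted p = 0.00172). These 4 met the study's bar, as 21.1% of models did.

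Irak3, Tollip and Myd88 passed in all 20 alternatives, and Ticam1 in all but the fit without the C57Bl/6EiJ vehicle library (1.61, adjusted p = 0.0833). Irak1 was 0.73 ± 0.24 higher (adjusted p = 0.0297) but did not pass in 6 of 20 alternatives, with adjusted p of 0.0571 with a GC correction and 0.0750 to 0.102 without 1 of 5 libraries. The median of all models was 0.28 lower in TGEMs, and 34.7% of the models that passed were higher, against 49.1% with equal library medians. With equal medians Irak2 (1.03, adjusted p = 0.0116) and Traf6 (0.91, adjusted p = 0.0119) also passed. The fibroblast, B cell and mast cell markers given above moved with this comparison, and their part in the result was not tested.

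**Figure D5:**
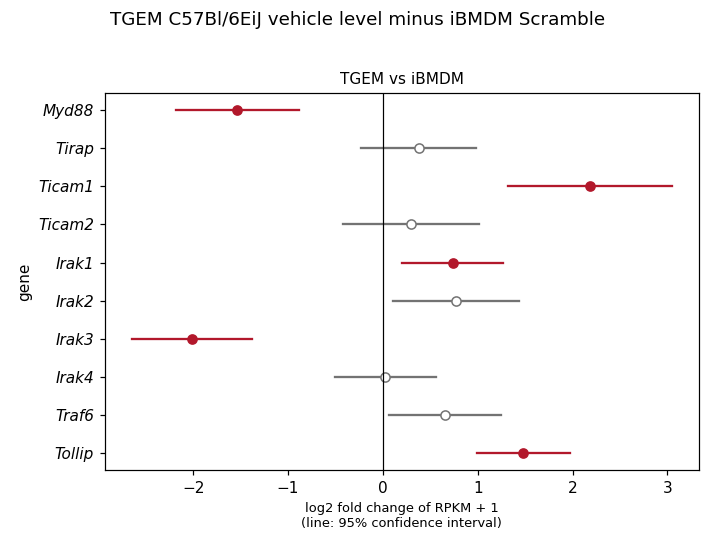
Fitted log2 fold change of RPKM + 1 (x axis) of each gene (y axis), as the C57Bl/6EiJ vehicle level of TGEMs minus Scramble iBMDMs in 1 fit of 13 libraries. Lines are 95% confidence intervals and filled red points passed at an adjusted p under 0.05. Ticam1 is the highest point at 2.18 and Irak3 the lowest at -2.01.

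The lists are given beside the 46.3% of all models that passed between the cell types, and no list was tested against it. Of 14 receptors and co-receptors tested 2 were higher and 4 lower in TGEMs, with Ly86, the partner of CD180, listed at 0 in Scramble against 599 reads in the C57Bl/6EiJ vehicle library and Tlr2 at 5.66 against 61.5 RPKM (-3.76 ± 0.43). Below TRAF6 and TRIF, 3 were higher and 5 lower of 19, with Ikbkg at -2.12 ± 0.24 and Peli2, which encodes a ubiquitin ligase that acts on IRAK1, at 1.84 ± 0.36. Of 12 inhibitors 1 was higher, Nfkbib (1.77 ± 0.42), and 4 were lower, with Tnip3 at -3.08 ± 0.33. Of 4 IL-1 family receptors 2 were higher and 1 lower, and of 12 KLA response genes 4 were higher and 2 lower.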

How the data were processed

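Polyadenylated RNA was sequenced in 13 of the 17 samples, and 4 samples of nascent RNA (GRO-seq) were left out. The values are RPKM as deposited: the authors aligned reads with STAR to mm10, with a strain-specific genome for the Balb/cJ libraries, and counted exons with HOMER (genes condensed, RPKM output), per the file headers and their methods. Versions and a strand option are not given in the sources used here. Scaling to all reads of a library makes RPKM move when a few genes change, so fits with equal library medians and quantile normalization were added. The table had 24453 gene models, of which 20683 were protein-coding. Values of a library are whole multiples of the RPKM that 1 read gives a gene, and 100% of values up to 50 reads came out whole within 0.05 reads or the rounding of the value, which gave the depth of each library (1553296 to 18444431 reads, 74.1% to 86.4% of them in exons).

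log2(RPKM + 1) was fitted with limma 3.58.1 (R 4.3.3, trend on mean level) over models that averaged at least 1 RPKM, with 4 group means over 8 iBMDM libraries (4 residual degrees of freedom), with KLA and strain over 5 TGEM libraries (2), with their interaction (1) and with all 13 libraries (6). P values are two-sided, were adjusted by the Benjamini-Hochberg method over all models tested, and measure only the spread between these samples, which may be technical, since separate cultures or animals are not stated for each. Fold changes on this scale understate those of low genes. The study used edgeR on counts, which the RPKM unit does not allow as the main test here, and limma-voom on the recovered reads was an alternative. On simulated data with 200 models changed 4-fold, 199, 198 and 198 were recovered for Atf3KO, JunKO and JunDKO against Scramble and 200 for KLA. Unchanged models called were 17, 33, 20 and 46. For the interaction 157 of 200 were recovered, beside 101 unchanged models called. The changed models were drawn from those that averaged at least 16 RPKM, and 1 spread was set for all models. Recovery of changes nearer 2-fold, of lower genes, or with the replicate spread of these data was not simulated. Replicates differed by more than sampling noise and none held identical values. The chi-square of their reads per degree of freedom, which also rises with depth, was 3.67 to 4.01 in Scramble, JunKO and JunDKO. It was 27.6 in Atf3KO and 81.0 in Balb/cJ KLA, the pairs whose libraries differ in label date. The iBMDM fit shares its spread over all 4 groups. A fit without 1 of a pair of replicates assumes that the lone library varies like the others.

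The 10 genes, the pathway lists and the marker lists were chosen with earlier results of these data known. All 10 genes are named. From each pathway list, genes with the largest absolute log2 fold change that passed are named, at most 2 per list and comparison, S100a8 was named after its values were seen, and the 5 models most like the gene of widest range are named in the closing section. Lists are described by counts and medians with no test. RefSeq promoters were matched by symbol. Sequencing, alignment and counting were not repeated.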

Additional observations from a re-analysis of the deposited data

How the results depend on the processing

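The fall of Irak3 in JunDKO and of Tirap in Atf3KO, and the TGEM difference of Irak3, Myd88 and Tollip, kept their direction and passed in all alternatives run (19, 18 and 20). Over all pairs of a gene and a comparison whose log2 fold change was at least its SE, 978 refits stayed on the same side of the threshold with the same sign, 42 no longer passed, 31 newly passed and 3 reversed. The reversals were Myd88 in JunDKO against JunKO (-0.041 with equal library medians) and Irak2 in JunDKO against Scramble (-0.0025 with equal medians, -0.070 without Scramble replicate 2, against 0.62 without Scramble replicate 1).

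The number of the 10 genes that passed changed as follows, with the values of the report first. Atf3KO against Scramble went from 4 to 2 with only the 2 groups fitted, and to 2 at the lowest on leaving out 1 replicate. JunDKO against Scramble went from 3 to 1 with equal medians, 2 with no filter on low values and 2 with quantile normalization. It also fell on leaving out a JunDKO, JunKO or Scramble replicate. JunDKO against JunKO went from 2 to 1 with equal medians or quantile normalization, to 3 with a GC correction, and to 1 on leaving out any JunDKO, JunKO or Scramble library. Atf3KO against JunKO went from 2 to 3 with a GC correction and to 1 at the lowest on leaving out a replicate. KLA went from 0 to 1 with all 13 libraries in 1 fit. TGEM against iBMDM went from 5 to 8 with quantile normalization and ranged from 3 (without the C57Bl/6EiJ vehicle library) to 7 on leaving out 1 library. The cause of these changes was not tested.

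Same-numbered iBMDM replicates were not taken as pairs, since each group has 2 and the labels tie the numbers to no shared batch. Their deviations correlated at 0.18 to 0.22 among Scramble, JunKO and JunDKO, whose libraries share a label date, and at -0.21 to -0.12 between these and Atf3KO. With the replicate block and without the Atf3KO libraries, chosen after seeing the data, 4 genes passed for JunDKO against JunKO and 4 for JunDKO against Scramble, none passed for JunKO, and the counts over all models were 2204, 2654 and 141 (1152, 1560 and 24 without the block). With the replicate block and a GC correction 8 genes passed for Atf3KO against JunDKO, 4 for Atf3KO against JunKO and 3 for JunDKO against JunKO, and the block alone, in the fit of all 4 groups, let Irak2 pass for Atf3KO against JunDKO and took the JunKO count over all models from 30 to 14.

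Counts over all models moved by more than 1.5 times in these cases. JunKO went from 30 to 9 with a pseudocount of 0.1, 103 with a GC correction, 135 with the block and a GC correction, and 13 to 17 without 1 of 5 libraries. JunDKO went from 1256 to 2365 and 2431 with a GC correction alone and with the block, and 409 to 583 without a JunDKO or Scramble library. JunDKO against JunKO went from 870 to 1978 and 2056 likewise, and 228 to 400 on leaving out. Atf3KO went from 4409 to 2910 without Atf3KO replicate 2 and 2087 without Scramble replicate 2, Atf3KO against JunDKO from 4355 to 2519 and 2147 without JunDKO replicate 1 or 2, and Atf3KO against JunKO from 3792 to 2202 without Atf3KO replicate 2 and 1544 without JunKO replicate 2. KLA went from 158 to 431 with all libraries, 240 with limma-voom, 71 with label date in place of strain, 57 with no filter, 78 without Balb/cJ KLA replicate 1 and 28 without the Balb/cJ vehicle library. Strain went from 239 to 793 with all libraries, 561 with limma-voom, 44 with no filter and 32 to 397 on leaving out a library. The interaction went from 0 to 1 with equal medians, 21 with a pseudocount of 5 and 147 with a GC correction, and TGEM against iBMDM from 5055 to 2780 without the C57Bl/6EiJ vehicle library.

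The share of models that passed and were higher also moved with the scaling: for KLA from 84.8% to 59.2% with limma-voom, for strain from 37.2% to 49.1% with equal medians, 51.1% with quantile normalization and 52.2% with limma-voom, for JunKO from 56.7% to 37% with limma-voom, for Atf3KO against JunDKO from 36.5% to 48.4% with equal medians and 47.5% with quantile normalization, for JunDKO against JunKO from 53.2% to 37% with quantile normalization, and for TGEM against iBMDM from 34.7% to 47.9% with quantile normalization. Few reads stood behind Tirap in Atf3KO (8 and 32), Ticam1 and Traf6 in Scramble (19 to 46) and Myd88 in the Balb/cJ vehicle library (43).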

Other observations

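Tollip, the gene of the 10 with the widest range of group means, was compared with the 10929 models that averaged at least 1 RPKM. The 5 models whose log2(RPKM + 1) followed it most closely over the 13 libraries were Gadd45b, a stress-response gene (Pearson r 0.979), Mfsd7b, a transporter (0.976), Cpeb4, a regulator of mRNA polyadenylation (0.974), Cnksr3 (0.971) and Pros1, which encodes protein S (0.969). The 13 points fall into the 5 TGEM and the 8 iBMDM libraries, so these values describe mainly the difference between the cell types and carry no test.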
